A study of Mus musculus with 31 samples.

Results

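The 10 genes described here encode proteins that neutrophil precursors pack into granules, or proteins made alongside them: Elane, Mpo, Prtn3 and Ctsg of the primary granules, Camp, Ngp, Ltf and Lcn2 of the secondary granules, and Fcnb and Lrg1. They were taken by symbol from a table of gene counts of sorted monocytes, and all 10 were found among its 24411 genes. The question put to them was whether their transcripts in monocytes of tumor-bearing mice go with genes of dividing progenitors, as in emergency myelopoiesis, or with genes of mature neutrophils. In blood monocytes of tumor-bearing mice 8 of the 10 were higher than in healthy blood, where 14.0% of all genes tested were called higher. In tumor monocytes 8 of the 10 were lower than in that blood, where 31.7% of all genes tested were called lower. The 4 primary granule genes lay above every healthy library in each of the 3 libraries from the blood of tumor-bearing mice, Mpo only just in the first of them, whereas Camp, Ngp and Ltf lay above every healthy library in 2 of those 3.

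Neutrophil granules form in order as the cell matures in the bone marrow. Primary (azurophil) granules are filled at the promyelocyte stage with serine proteases and myeloperoxidase, and secondary (specific) granules are filled later, at the myelocyte stage, with iron-binding and antimicrobial proteins. Mature blood neutrophils keep the proteins, carry little of these mRNAs, and instead transcribe genes such as Cxcr2, Retnlg, S100a8 and S100a9. Emergency myelopoiesis is the enlarged output of granulocytes and monocytes from marrow progenitors in infection or cancer, driven by G-CSF and related cytokines. One described class of Ly6C-high monocytes descends from granulocyte-monocyte progenitors and carries some granule transcripts.

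The cells were monocytes sorted as CD11b+ Ly6G- Ly6Chi MHC-II- from C57BL/6J mice. Bulk RNA-seq was made from 3 groups of 3 libraries: blood of healthy mice (healthy blood), blood of mice carrying subcutaneous LLC tumors (LLC blood), and the LLC tumors themselves (LLC tumor). LLC is the usual short name of Lewis lung carcinoma, a mouse tumor line. The sample titles and tissue labels give blood as the source of the first 6 libraries, while their column heads in the count table carry the letters BM, which are not explained; the titles were followed here, and whether BM stands for bone marrow cannot be told from the labels. No genetic change or drug is given for any group, and the labels give neither the age of the mice, nor whether animals were pooled, nor which blood and tumor samples came from the same mouse. The labels name replicates without saying that they came from separate animals, so the p-values measure the spread between these libraries.

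The 9 libraries held 10457492 to 20706412 counts each. Levels are given as CPM, the counts per 1000000 counts of a library, and 3 counts, taken as the floor of detection, came to 0.145 to 0.287 CPM. Monocyte markers were abundant in each library: Csf1r, the M-CSF receptor, lay between 1172 and 2135 CPM, Ccr2, the chemokine receptor of Ly6C-high monocytes, between 1018 and 2392 CPM, and Ly6c2 between 272 and 1728 CPM. Healthy blood 2 stood apart by B-cell and neutrophil genes: the summed level of 5 B-cell genes was 163 CPM there, beside 17.2 CPM in healthy blood 1 and 24.0 CPM in healthy blood 3, and its neutrophil genes are given below with the granule genes. In bulk samples fewer cells that express a gene and less RNA per cell cannot be told apart.

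The sequences just upstream of the granule genes show where the primary and the secondary genes are alike and where they differ. Of the 10 genes, 6 are shown: the 4 primary genes, and Ngp and Ltf, the secondary genes whose levels differed by the most fold between LLC blood libraries. Each is the 250 bases before the RefSeq transcription start site in GRCm38.p6, read 5′ to 3′ on the gene's own strand, and capitals mark matches to the cores searched on both strands. The cores were GAGGAA for PU.1, TTGCNNAA for C/EBP, TGTGGT for CBF, and AACNGTT or AACGG for MYB. Both MYB patterns can match the same bases, since AACNGTT with G in place of N contains AACGG.
Elane, chr10:79886062-79886311, plus strand: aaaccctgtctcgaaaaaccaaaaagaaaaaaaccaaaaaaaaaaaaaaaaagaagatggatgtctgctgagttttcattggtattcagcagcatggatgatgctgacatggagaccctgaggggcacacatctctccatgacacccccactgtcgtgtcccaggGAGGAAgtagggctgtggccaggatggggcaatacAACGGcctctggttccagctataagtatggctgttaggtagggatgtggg
Prtn3, chr10:79879417-79879666, plus strand: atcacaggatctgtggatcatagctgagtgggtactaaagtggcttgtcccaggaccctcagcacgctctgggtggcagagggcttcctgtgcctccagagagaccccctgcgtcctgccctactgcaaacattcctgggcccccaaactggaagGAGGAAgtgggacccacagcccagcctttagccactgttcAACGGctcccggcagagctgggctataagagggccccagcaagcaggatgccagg
Mpo, chr11:87793534-87793783, plus strand: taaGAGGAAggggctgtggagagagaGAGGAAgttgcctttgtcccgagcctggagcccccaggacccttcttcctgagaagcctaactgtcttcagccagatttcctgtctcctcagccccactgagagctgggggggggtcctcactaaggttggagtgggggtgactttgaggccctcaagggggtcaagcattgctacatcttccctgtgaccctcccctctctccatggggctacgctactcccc
Ctsg, chr14:56102575-56102824, minus strand: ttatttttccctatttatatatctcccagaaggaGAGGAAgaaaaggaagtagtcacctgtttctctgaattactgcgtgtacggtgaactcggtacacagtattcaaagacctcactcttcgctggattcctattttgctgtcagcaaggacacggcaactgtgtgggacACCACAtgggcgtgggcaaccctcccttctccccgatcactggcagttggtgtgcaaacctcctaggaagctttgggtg
Ngp, chr9:110419558-110419807, plus strand: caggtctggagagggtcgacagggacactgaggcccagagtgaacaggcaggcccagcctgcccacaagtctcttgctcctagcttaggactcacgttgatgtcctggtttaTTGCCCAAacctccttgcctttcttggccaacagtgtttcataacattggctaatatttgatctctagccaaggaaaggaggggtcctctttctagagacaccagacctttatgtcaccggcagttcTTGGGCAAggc
Ltf, chr9:111019042-111019291, plus strand: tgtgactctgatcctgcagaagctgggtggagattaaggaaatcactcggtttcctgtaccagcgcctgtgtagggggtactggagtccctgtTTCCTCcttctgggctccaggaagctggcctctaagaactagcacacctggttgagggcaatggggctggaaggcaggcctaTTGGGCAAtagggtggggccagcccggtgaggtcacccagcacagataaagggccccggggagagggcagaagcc

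A PU.1 core stood in the windows of 4 of the 4 primary genes and in 6 of the 10 windows in all, against 23.25% of 32817 RefSeq windows of the same length. PU.1 is the transcription factor that myeloid cells need to form. Elane and Prtn3, which lie next to each other, each carried 1 PU.1 core and 1 MYB core, at -85 to -80 and -50 to -46 in Elane and at -95 to -90 and -55 to -51 in Prtn3, counted back from the start site. A MYB core was in 2 of the 10 windows and in 17.14% of all windows. The Mpo window held 2 PU.1 cores, and the Ctsg window held 1 PU.1 core and the only CBF core, which 14.04% of all windows carry. A C/EBP core was in 4 windows (Fcnb, Lcn2, Ngp and Ltf), in 0 of the 4 primary windows, and in 9.571% of all windows. The windows of Camp and Lrg1 held none of these letters. These matches describe the letters in a window and are not binding sites.

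**Figure D1:**
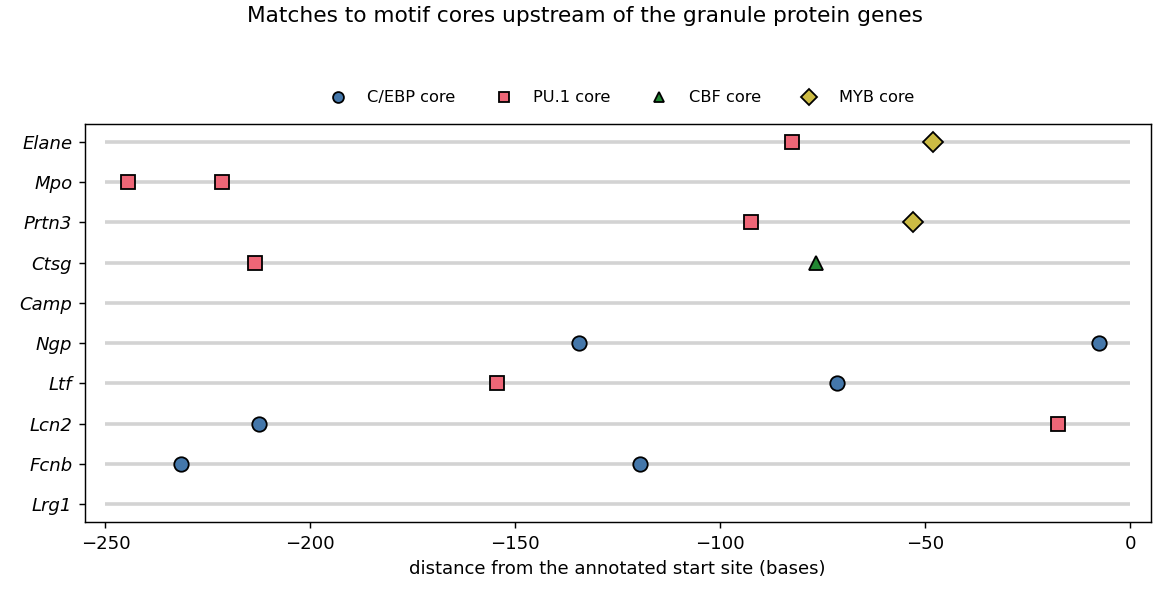
Matches to the 4 cores in the 250 bases upstream of each of the 10 genes; the x axis is the distance from the RefSeq start site in bases, each row is a gene, and markers show the core and its place. PU.1 cores appear in all 4 primary rows, and C/EBP cores in the rows of Fcnb, Lcn2, Ngp and Ltf only.

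Elane (ENSMUSG00000020125, chromosome 10, 79886312 to 79888216) encodes neutrophil elastase, a serine protease of primary granules. Its level was 0.429, 0.553 and 0.368 CPM in the 3 healthy blood libraries, 3.35, 8.51 and 5.12 CPM in LLC blood and 0, 0.443 and 0.691 CPM in LLC tumor, from 6, 9 and 6 counts, 35, 123 and 106 counts, and 0, 5 and 8 counts. Each LLC blood library lay above each of the other 6, and the healthy and tumor libraries overlapped. The rise in LLC blood was 3.60 ± 0.62 (SE) on the log2 scale, with an adjusted p of 0.00363 (edgeR, n = 3 libraries a group, adjusted over the 12337 genes tested).

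Prtn3 (ENSMUSG00000057729, chromosome 10, 79879667 to 79883174) encodes proteinase 3, the neighbour of elastase on the chromosome and in the granule. Its level was 7.15, 12.1 and 7.17 CPM in healthy blood, 29.7, 56.9 and 46.7 CPM in LLC blood and 5.15, 12.4 and 9.25 CPM in LLC tumor. LLC blood again lay above the other groups with no overlap, from 311, 822 and 967 counts. The log2 rise over healthy blood was 2.31 ± 0.31 (SE, adjusted p 0.00112).

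Mpo (chromosome 11, 87793784 to 87804412) encodes myeloperoxidase, which turns hydrogen peroxide into hypochlorous acid. It was found at 0.572, 0.737 and 0.613 CPM in healthy blood, 1.05, 4.08 and 2.46 CPM in LLC blood and 0.181, 0.709 and 0.605 CPM in LLC tumor. LLC blood 1 rested on 11 counts in the shallowest library and lay just above the healthy libraries, with 8, 12 and 10 counts, while LLC blood 2 and 3 stood well above them. The log2 rise was 1.95 ± 0.51 (SE, adjusted p 0.0238), and the call was lost in 5 of the 9 fits that left out 1 library: without healthy blood 1 (adjusted p 0.0859), 2 (0.0758) or 3 (0.0912), and without LLC blood 2 (0.125) or 3 (0.0765).

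Ctsg (ENSMUSG00000040314, chromosome 14, 56099885 to 56102574) encodes cathepsin G, a further serine protease of primary granules. Its level was 1.21, 1.23 and 1.23 CPM in healthy blood, 2.87, 4.15 and 2.80 CPM in LLC blood and 0.361, 0.620 and 0.346 CPM in LLC tumor. The 3 groups did not overlap, in the order LLC tumor, healthy blood, LLC blood. The log2 rise in LLC blood was 1.38 ± 0.29 (SE, adjusted p 0.00857), and without LLC blood 2 the call was lost (adjusted p 0.0619).

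**Figure D2:**
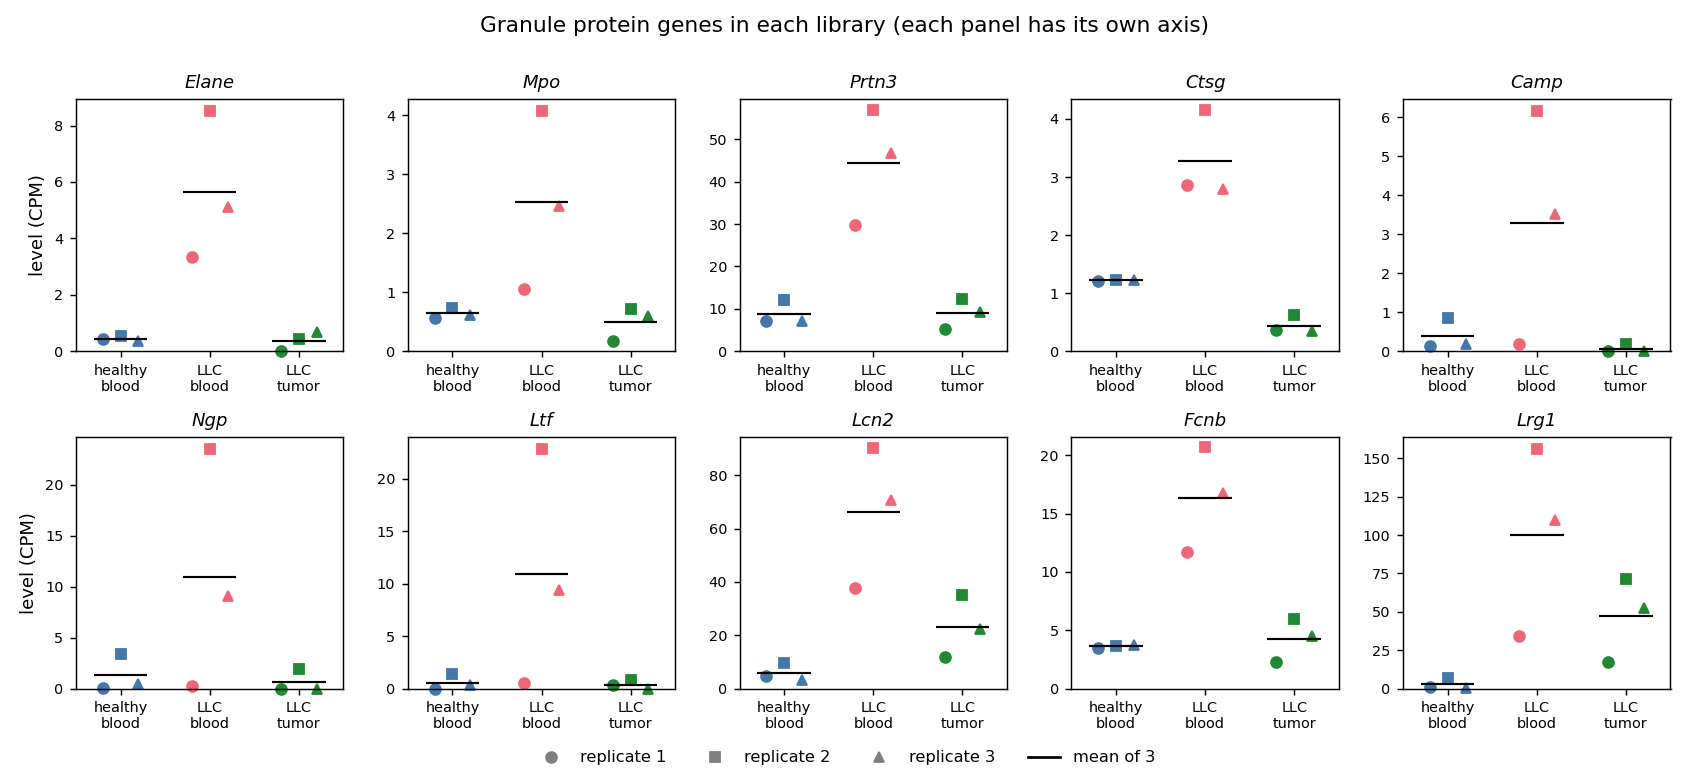
Level of each of the 10 granule genes in each of the 9 libraries; the y axis of each panel is CPM on its own scale, points are libraries marked by replicate and bars are means of 3. The LLC blood points of Elane, Mpo, Prtn3, Ctsg, Lcn2, Fcnb and Lrg1 lie above every healthy blood point, and those of Camp, Ngp and Ltf spread from near 0 in replicate 1 to the highest values in replicate 2.

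Camp (chromosome 9, 109847377 to 109849456) encodes the precursor of cathelicidin, an antimicrobial peptide of secondary granules. It gave 2, 14 and 3 counts in healthy blood, 2, 89 and 73 in LLC blood and 0, 2 and 0 in the tumors, or 0.143, 0.860 and 0.184 CPM, 0.191, 6.16 and 3.53 CPM, and 0, 0.177 and 0 CPM. LLC blood 1 was inside the healthy range and LLC blood 2 and 3 were above it. The log2 difference of 3.00 ± 1.03 (SE) missed the threshold (adjusted p 0.0642).

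Ngp (ENSMUSG00000032484, chromosome 9, 110419808 to 110423012) encodes neutrophilic granule protein, a cystatin-like secondary granule protein of mice. It gave 1, 55 and 7 counts in healthy blood, 3, 340 and 188 in LLC blood and 0, 22 and 0 in the tumors. In CPM these were 0.0715, 3.38 and 0.429, then 0.287, 23.5 and 9.08, then 0, 1.95 and 0. The groups overlapped, since LLC blood 1 fell between healthy blood 1 and 3. The log2 difference of 3.03 ± 1.45 (SE) was not called (adjusted p 0.165).

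Ltf (ENSMUSG00000032496, chromosome 9, 111019292 to 111042766) encodes lactoferrin, which binds iron. It gave 0, 22 and 6 counts in healthy blood, 6, 331 and 194 in LLC blood and 4, 9 and 0 in the tumors. In CPM these were 0, 1.35 and 0.368, then 0.574, 22.9 and 9.37, then 0.361, 0.798 and 0. LLC blood 1 was below healthy blood 2, so the groups overlapped although the fit called a rise of 4.17 ± 1.27 (SE) on the log2 scale (adjusted p 0.0413). That call was lost with DESeq2 (0.0621), with limma-voom (0.117) and in 5 of the 9 fits without 1 library: those leaving out healthy blood 1 (0.114), healthy blood 2 (0.0574), healthy blood 3 (0.141), LLC blood 2 (0.177) and LLC blood 3 (0.0973).

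Lcn2 (ENSMUSG00000026822, chromosome 2, 32384637 to 32387739) encodes lipocalin 2, which withholds iron from bacteria and is also made outside the granulocyte lineage under inflammation. Its level was 4.86, 9.52 and 3.25 CPM in healthy blood, 37.7, 90.2 and 70.8 CPM in LLC blood and 11.7, 35.1 and 22.2 CPM in LLC tumor. Every LLC blood library lay above the tumor libraries, which in turn lay above the healthy ones. Unlike Camp, Ngp and Ltf, it was raised in LLC blood 1 too, and the log2 rise was 3.46 ± 0.47 (SE, adjusted p 0.00123).

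Fcnb (ENSMUSG00000026835, chromosome 2, 28076479 to 28084910) encodes ficolin B, a lectin of the complement system made by maturing myeloid cells. Its level was 3.50, 3.62 and 3.74 CPM in healthy blood, 11.7, 20.7 and 16.8 CPM in LLC blood and 2.26, 5.94 and 4.49 CPM in LLC tumor. The healthy libraries were close together, LLC blood was above all other libraries, and the tumor libraries spread around the healthy ones. The log2 rise was 2.15 ± 0.28 (SE, adjusted p 0.000974).

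Lrg1 (ENSMUSG00000037095, chromosome 17, 56119678 to 56121946) encodes leucine-rich alpha-2-glycoprotein, a secreted protein of neutrophil granules and of the acute phase response. It gave 14, 110 and 8 counts in healthy blood, 361, 2260 and 2270 in LLC blood and 191, 804 and 607 in the tumors, so healthy blood 2 was well above the other healthy libraries and still below every library from tumor-bearing mice. Its levels in LLC blood were 34.5, 156 and 110 CPM, beside 1.00, 6.76 and 0.490 CPM in the healthy libraries, and LLC blood was called higher by 5.13 ± 0.88 on the log2 scale (SE, edgeR, adjusted p 0.00359).

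Of the 10 genes, 8 were called higher and 0 lower in LLC blood against healthy blood with edgeR, where 14.0% of the 12337 genes tested were called higher and 9.61% lower. Unadjusted p-values under 0.05 fell to 9 genes with a higher and 0 with a lower level. DESeq2 called 8 higher and 0 lower, and limma-voom 7 and 0. In 7 of the 10 genes the 3 LLC blood libraries lay above the 3 healthy ones, against 27.6% of all genes tested, and in 0 they lay below, against 23.8%. The median log2 difference was 3.01 over the 10 genes, 2.13 over the primary genes, 3.25 over the secondary genes and -0.01 over all genes tested. Some genes reached the low-count filter mainly through LLC blood: Elane had at least 10 counts in 0 healthy, 3 LLC blood and 0 tumor libraries. With no such filter 8 were again called higher. T and NK cell genes moved with this comparison: their summed level was 262 to 634 CPM in healthy blood against 31.4 to 58.4 CPM in the LLC blood libraries, and 10 of 10 were called lower with no overlap. The part of such cells in the granule gene values was not tested.

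The LLC blood libraries did not contribute equally. LLC blood 2 was the highest of its group in 10 of the 10 genes and LLC blood 1 the lowest in 9. Healthy blood 2 and LLC tumor 2 were each the highest of their group in 9. Healthy blood 1 was the lowest of its group in 7 and LLC tumor 1 in 8, so the replicate numbers had a like order in each group. Without LLC blood 2 the count of genes called higher fell to 5: Elane, Prtn3, Lcn2, Fcnb and Lrg1, which kept their call in each of the 9 fits without 1 library. Leaving out replicate 2 of every group, which had the most Cxcr2 and Retnlg of its group, removed Camp, Ngp and Ltf by the low-count filter and left 4 called higher: Prtn3 (2.40 on the log2 scale, adjusted p 0.0149), Lcn2 (3.74, 0.0121), Fcnb (1.95, 0.0339) and Lrg1 (6.60, 0.019). Elane then stood at a log2 difference of 3.37 with an adjusted p of 0.0972.

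**Figure D3:**
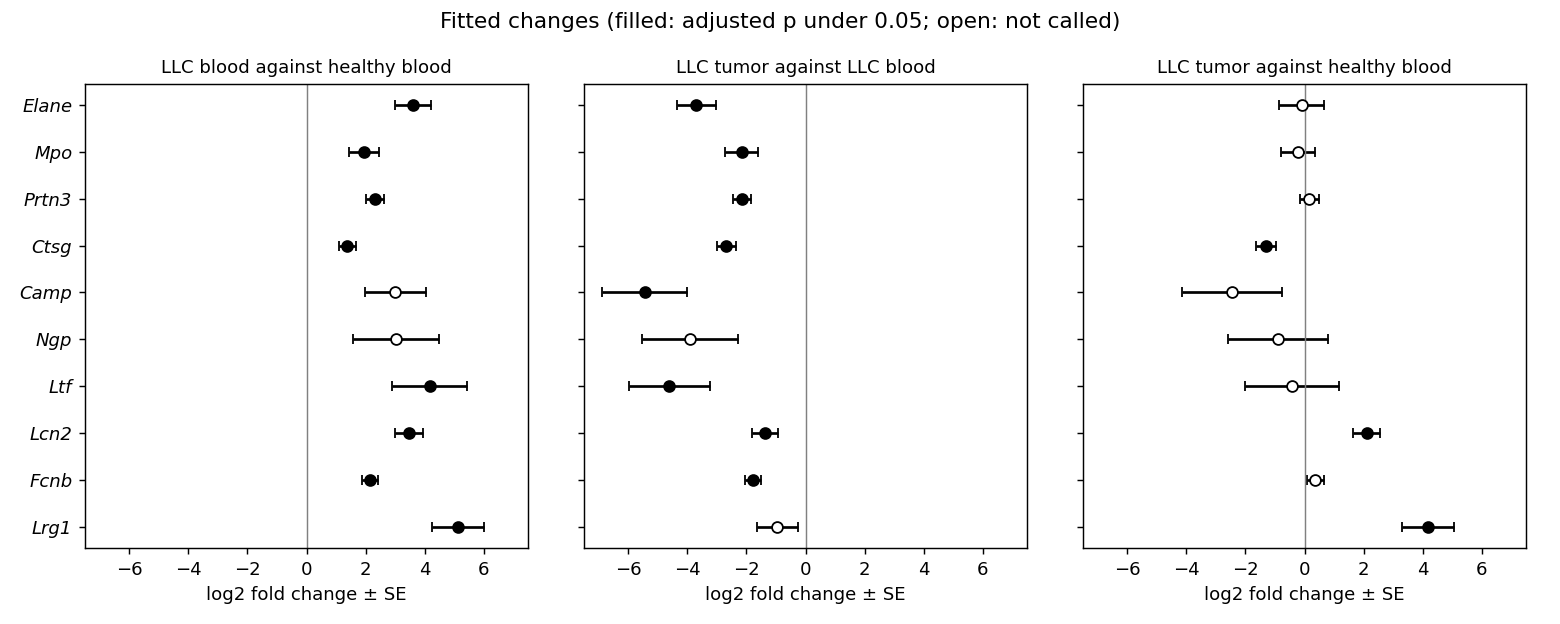
Fitted log2 differences with their SE for the 10 granule genes in the 3 comparisons; the x axis is log2 fold change and filled points passed an adjusted p of 0.05. In LLC blood 8 points are filled and to the right of 0, in LLC tumor against LLC blood 8 are filled and to the left, and in LLC tumor against healthy blood Lcn2 and Lrg1 are filled to the right and Ctsg to the left.

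Primary and secondary genes are set side by side here by their sums in each library. The summed level of Elane, Mpo, Prtn3 and Ctsg was 9.36, 14.6 and 9.38 CPM in healthy blood, 37.0, 73.6 and 57.1 CPM in LLC blood and 5.69, 14.2 and 10.9 CPM in LLC tumor. The sum of Camp, Ngp and Ltf, a trio chosen after its values were seen, was 0.214, 5.59 and 0.981 CPM in healthy blood, 1.05, 52.6 and 22.0 CPM in LLC blood and 0.361, 2.93 and 0 CPM in LLC tumor. LLC blood 1 was therefore above every healthy library in the primary sum and inside the healthy range in the trio. The trio's sum divided by the primary sum, in CPM not scaled by gene length, was 0.0284 in LLC blood 1, 0.714 in LLC blood 2 and 0.385 in LLC blood 3, beside 0.0229, 0.382 and 0.105 in healthy blood. With Lcn2 added, the secondary sum was 38.7, 143 and 92.8 CPM in LLC blood and 5.07, 15.1 and 4.23 CPM in healthy blood. With Lcn2 each LLC blood library was thus above every healthy library in this sum, as in the primary sum. Lcn2 alone was at 37.7, 90.2 and 70.8 CPM in LLC blood, so the secondary sum mostly restates Lcn2. Likewise Prtn3, at 29.7, 56.9 and 46.7 CPM in LLC blood, was most of the primary sum. No test was made of these sums, since the genes were chosen with results known.

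**Figure D4:**
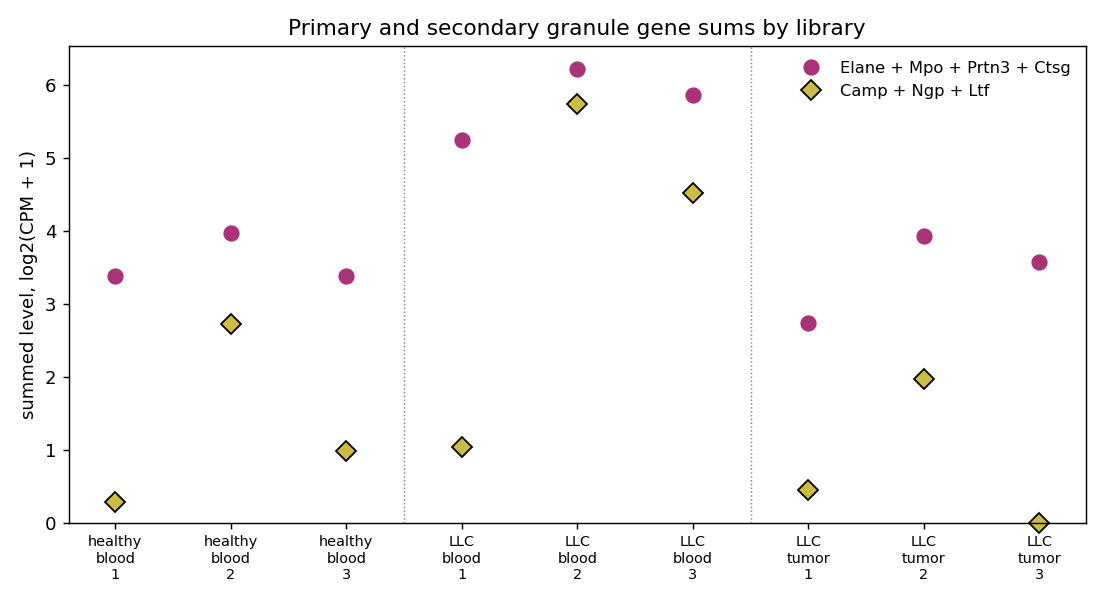
Summed level of Elane, Mpo, Prtn3 and Ctsg (circles) and of Camp, Ngp and Ltf (diamonds) in each of the 9 libraries, which stand on the x axis by group; the y axis is log2(CPM + 1) of the sum. In LLC blood 1 the circle, at 37.0 CPM, stands above those of all healthy libraries, while the diamond, at 1.05 CPM, lies between those of healthy blood 2 and 3.

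S100a8, S100a9, Cxcr2 and Retnlg, genes that mature neutrophils express strongly, differed between libraries of one group. S100a8, a subunit of calprotectin, was at 2.93, 61.3 and 4.66 CPM in healthy blood, 49.9, 217 and 168 CPM in LLC blood and 23.2, 112 and 74.9 CPM in LLC tumor (LLC blood against healthy blood 2.62 ± 1.02 SE on the log2 scale, adjusted p 0.0942). Cxcr2, the chemokine receptor that draws neutrophils out of the marrow and into tissue, was at 0.214, 11.5 and 0.430 CPM in healthy blood, 1.15, 9.13 and 4.20 CPM in LLC blood and 3.88, 8.78 and 6.91 CPM in LLC tumor. Retnlg, a resistin-like gene of mature neutrophils, was at 0.0715, 8.54 and 0.368 CPM in healthy blood, 0, 1.94 and 0.0966 CPM in LLC blood and 0, 6.20 and 0.864 CPM in LLC tumor. Healthy blood 2 thus had the most Cxcr2 and Retnlg of the 9 libraries, with Elane at 0.553 CPM and Prtn3 at 12.1 CPM, below every LLC blood library. LLC blood 1 had 0 counts of Retnlg and 1.15 CPM of Cxcr2, with Prtn3 at 29.7 CPM. S100a9 was at 0.929, 90.7 and 2.51 CPM in healthy blood and 15.1, 161 and 86.1 CPM in LLC blood. Its log2 difference between these groups was 1.45 ± 1.35 (SE, edgeR, adjusted p 0.479). In LLC tumor it was at 7.58, 87.6 and 36.3 CPM. S100a8 and S100a9 were both highest in LLC blood 2. In LLC blood 1 both lay above healthy blood 1 and 3 and below healthy blood 2. Healthy blood 2 was also the highest of its group in 9 of the 10 granule genes, the exception being Fcnb.

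Over the list of 20 mature neutrophil genes, 19 were in the table and 18 were tested. In LLC blood 2 were higher (Mmp8 and Il1r2), 4 were lower (Cd177, Padi4, Fpr2 and Hdc) and 12 were not called, with a median log2 difference of -0.45. Over all genes tested, 14.0% were called higher and 9.61% lower. The summed level of the list was 1384 to 1675 CPM in healthy blood, 1387 to 1708 CPM in LLC blood and 1535 to 1826 CPM in LLC tumor. That sum includes Csf3r, the G-CSF receptor, which monocytes also express. Its healthy levels spanned 498 to 543 CPM, its LLC blood levels 488 to 496 CPM. In healthy blood 1, where the list summed to 1501 CPM, Cd177 was at 409 CPM, Slfn4 at 171 CPM and Mmp8 at 171 CPM. Low genes such as Cxcr2 and Retnlg therefore hardly move the sum. Of the defining markers, Ly6g was not in the count table, so its level could not be checked. Stfa2 stayed at or under 0.135 CPM and Stfa2l1 at or under 1.19 CPM. Asprv1 was at 0 CPM in healthy blood 1 and 3 and 2.34 CPM in healthy blood 2. In the LLC blood libraries it was between 0.0966 and 0.191 CPM. What part neutrophil RNA has in the granule gene levels was not tested.

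**Figure D5:**
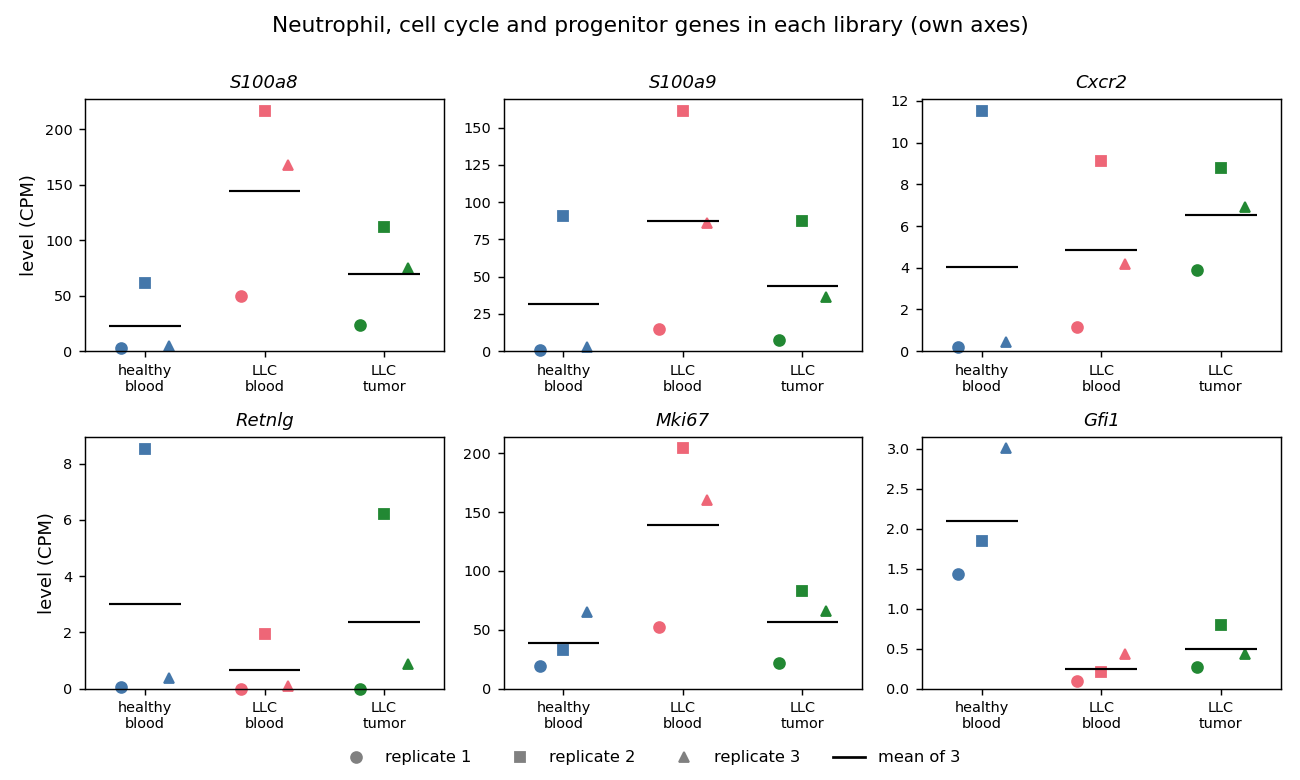
Levels of S100a8, S100a9, Cxcr2, Retnlg, Mki67 and Gfi1 in each library; the y axis of each panel is CPM on its own scale, points are libraries marked by replicate and bars are means of 3. Healthy blood 2 has the highest Cxcr2 (11.5 CPM) and Retnlg (8.54 CPM), and LLC blood 2 the highest S100a8 (217 CPM) and Mki67 (205 CPM).

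Genes of stem cells and granulocyte-monocyte progenitors did not move as a group. The shares over all genes tested were 14.0% called higher in LLC blood and 9.61% lower. Of 13 listed, 9 were tested, and in LLC blood 1 was higher (Cdk6, a kinase of early cell cycle entry, 1.85 ± 0.22 SE, adjusted p 0.000705), 2 were lower and 6 were not called, with a median log2 difference of 0.13. The lower ones were Flt3, a progenitor cytokine receptor (-0.73 ± 0.17 SE, adjusted p 0.0124), and Gfi1, a repressor needed for neutrophil fate (-2.94 ± 0.54 SE, adjusted p 0.00469). Gfi1 fell from 1.43, 1.84 and 3.00 CPM to 0.0956, 0.208 and 0.435 CPM. Over the blood libraries it had the same order as the T and NK cell sum. That sum was 262, 405 and 634 CPM in healthy blood and 31.4, 47.1 and 58.4 CPM in LLC blood. The part of such cells in the Gfi1 level was not tested. Kit, the stem cell factor receptor, was at 0 to 0.145 CPM in LLC blood, at or below the floor. Ms4a3, a gene of granulocyte-monocyte progenitors, spanned 0 to 0.184 CPM in the healthy libraries, beside 0.0956 to 0.484 CPM in LLC blood. Cd34 was at 2.43, 2.03 and 1.78 CPM in healthy blood and 2.19, 1.73 and 2.94 CPM in LLC blood. In healthy blood the list summed to 50.0 to 60.9 CPM, beside 42.0 to 51.2 CPM in LLC blood. In LLC tumor it summed to 37.3 to 76.9 CPM. Flt3 was the largest part of the blood sums. It was at 42.5, 33.2 and 33.2 CPM in healthy blood and 28.4, 20.3 and 18.6 CPM in LLC blood. The lower sum in LLC blood rests on Flt3, which is also on the list of monocyte-dendritic progenitor type genes below.

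Cell cycle genes differed between libraries of one group. Their summed level was 75.1, 174 and 371 CPM in healthy blood, 155, 616 and 461 CPM in LLC blood and 95.6, 352 and 343 CPM in LLC tumor, so LLC blood 2 and 3 exceeded LLC blood 1 here, as they did in 9 of the 10 granule genes. Mki67, the proliferation marker, was at 18.9, 32.4 and 65.1 CPM in healthy blood and 52.5, 205 and 161 CPM in LLC blood, a log2 difference of 1.82 ± 0.59 (SE) that missed the threshold (adjusted p 0.0528). Of 20 cell cycle genes tested, Ccnb2 was called higher in LLC blood (2.15 ± 0.61 SE, adjusted p 0.0335), 0 were lower and 19 were not called, with a median of 0.49. Over all genes tested, 14.0% were called higher and 9.61% lower. Healthy blood 3 had the highest cell cycle sum of its group, and it was the highest of its group in 1 of the 10 granule genes and the lowest in 3. What part dividing cells have in the granule gene levels was not tested.

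Other granule genes went both ways in LLC blood, where 14.0% of all genes tested were called higher and 9.61% lower. Of 9 further genes of primary granules and their processing that were tested, 2 were higher in LLC blood, Serpinb1a, an inhibitor of elastase and its relatives (0.82 ± 0.17 SE, adjusted p 0.00913), and Gusb, a lysosomal glucuronidase (0.34 ± 0.08 SE, adjusted p 0.0166). Lyz2, the lysozyme of monocytes and neutrophils, was lower (-0.67 ± 0.21 SE, adjusted p 0.0452), 6 were not called and the median was 0.04. Prss57, a further serine protease of primary granules, was not tested, at 0.113 to 0.340 CPM in healthy blood, 0.626 to 1.07 CPM in LLC blood and 0 to 0.130 CPM in LLC tumor, and Bpi was at 0 CPM in each library. Of 13 secondary and tertiary granule genes tested, 4 were higher (Mmp8, Hp, Wfdc21 and Adam8), 3 were lower (Cd177, Pglyrp1 and Lyz2), 6 were not called and the median was 0.00. Olfm4 and Itgb2l were not tested: LLC blood 2 held 0.415 and 1.04 CPM of them, LLC blood 3 held 0.0966 and 0.435 CPM, and LLC blood 1 held 0.

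The transcription factors that act on granule genes were, where called, lower in LLC blood. For this paragraph too the shares over all genes tested were 14.0% called higher and 9.61% lower. Of 11 tested, 0 were called higher with edgeR and 5 were called lower: Gfi1 as above, Cebpa, which starts granulocyte and monocyte fate (-1.07 ± 0.28 SE, adjusted p 0.0233), Cebpb, known for emergency granulopoiesis (-0.52 ± 0.10 SE, adjusted p 0.00612), Cebpd (-0.26 ± 0.08 SE, adjusted p 0.0363) and Cbfb, the partner of RUNX1 (-0.34 ± 0.08 SE, adjusted p 0.015). Cebpe, which is required for secondary granules, was at 2.50, 3.63 and 1.90 CPM in healthy blood and 3.25, 3.74 and 5.12 CPM in LLC blood (adjusted p 0.256). Runx1 itself lay higher in LLC blood, at 106.2 to 120.8 CPM beside 88.35 to 96.76 CPM in healthy blood. It was not called (0.28 ± 0.10 SE, adjusted p 0.0741). Of 12 genes of the G-CSF, IL-6 and STAT3 response, 5 were higher in LLC blood: the feedback inhibitor Socs3 (1.26 ± 0.16 SE, adjusted p 0.000779), the receptor genes Il4ra (1.13 ± 0.14 SE, 0.000707), Il6st (1.06 ± 0.11 SE, 0.000292) and Il6ra (0.68 ± 0.12 SE, 0.00443), and Stat3 (0.34 ± 0.09 SE, 0.0232). The other 7 were not called, and the median of the 12 was 0.41.

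Among genes reported for monocytes that descend from granulocyte-monocyte progenitors, 2 of 9 were higher in LLC blood (Mmp8 and Wfdc21), 1 was lower (Cd177) and 6 were not called, with a median of 0.68. Over all genes tested, 14.0% were called higher and 9.61% lower. Among genes reported for monocytes that descend from monocyte-dendritic progenitors, 8 of 9 were lower, 0 were higher by edgeR and 1 was not called, with a median of -1.21, against 9.61% of all genes called lower. They included the MHC class II genes H2-Eb1 (-1.88 ± 0.56 SE, adjusted p 0.0391), H2-Aa (-1.80 ± 0.45 SE, 0.0188) and H2-Ab1 (-1.29 ± 0.33 SE, 0.0195). MHC class II protein was part of the sort gate, and H2-Aa was highest in the library with the most B-cell signal, at 255 CPM in healthy blood 2 beside 116 and 180 CPM in healthy blood 1 and 3. The part of B cells in this difference was not tested.

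In tumor monocytes the granule genes were mostly lower than in the blood of tumor-bearing mice. Of the 10 genes 8 were called lower and 0 higher with edgeR, where 31.7% of all genes tested were called lower and 29.6% higher. At an unadjusted p under 0.05, 9 were lower and 0 higher. DESeq2 called 8 lower and 0 higher, and limma-voom 7 and 0. In 7 of the 10 the tumor libraries lay below the LLC blood libraries with no overlap, against 44.8% of all genes, and in 0 they lay above, against 23.5%. Among these 7 is Camp, where LLC blood 1 and LLC tumor 2 both had 2 counts, under the floor, and differed in CPM only through library depth. The median log2 difference was -2.42 over the 10 genes, -2.42 over the 4 primary genes and -0.03 over all genes tested. Markers of other cells moved with this comparison. The erythroid genes summed to 168 to 920 CPM in the LLC blood libraries against 1.08 to 3.46 CPM in tumor, and 5 of 5 tested were lower. The platelet genes summed to 19.5 to 22.0 CPM in LLC blood against 146 to 227 CPM in tumor, with 2 of 6 higher and 2 lower. Those higher were Pf4 and Ppbp, with means of 100 and 89.4 CPM in tumor, which made up most of the tumor sum. Those lower were Itgb3 (-1.18 ± 0.18 SE on the log2 scale, adjusted p 0.000355) and Clec1b (-1.92 ± 0.51 SE, 0.00908). The genes of LLC tumor cells summed to 1.84 to 2.73 CPM in LLC blood against 63.1 to 101 CPM in tumor, with 3 of 3 tested higher. Cdh1, at 52.8, 58.3 and 39.2 CPM, was the largest part of the tumor sum. Epcam and Krt19, also listed, were too low to be tested, at or under 0.173 and 0.259 CPM in tumor. T and NK cell genes summed to 5.88 to 12.6 CPM in tumor, with 6 of 10 lower. What part these cells have in the granule gene values was not tested.

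Each primary gene was lower in tumor. Elane fell by 3.70 ± 0.66 on the log2 scale (SE, adjusted p 0.000896), and the others had log2 differences of -2.68 ± 0.33 (Ctsg, 9.73e-05), -2.16 ± 0.55 (Mpo, 0.00695) and -2.14 ± 0.31 (Prtn3, 0.000271). Among the secondary genes, Camp was at or below the floor of 3 counts in each tumor library, so it was at least 12.4-fold lower than in LLC blood, with the floor set for each library (adjusted p 0.00818). LLC blood 1 was below the floor too, and without LLC blood 2 the bound was 7.00-fold. Ltf fell by 4.61 ± 1.38 (SE, adjusted p 0.0161), although tumor 2, at 0.798 CPM, lay above LLC blood 1, at 0.574 CPM, and the call was lost without LLC blood 2 (adjusted p 0.0636) or LLC tumor 3 (0.053) and with limma-voom (0.152). Ngp was not called (-3.91 ± 1.61 SE, adjusted p 0.0595). Lcn2 fell by 1.37 ± 0.43 (SE, adjusted p 0.0194), a call lost without LLC blood 2 (0.0664), LLC blood 3 (0.0513) or LLC tumor 3 (0.0575), and Fcnb fell by 1.78 ± 0.28 (SE, adjusted p 0.000421). Lrg1, at 17.2, 71.3 and 52.4 CPM in tumor, overlapped with LLC blood and was not called (-0.95 ± 0.70 SE, adjusted p 0.262). Without replicate 2 of each group 5 genes were called lower.

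Neutrophil genes went both ways in this comparison, where 29.6% of all genes tested were called higher and 31.7% lower. Of 18 tested, 7 were higher in tumor than in LLC blood and 5 lower, with a median of 1.38. Those higher included Il1r2, a decoy receptor of interleukin 1 (5.29 ± 0.26 SE, adjusted p 4.18e-07), and Mmp9, gelatinase B of tertiary granules (5.23 ± 1.01 SE, 0.00154). Cxcr2 was at 0.59 ± 1.13 (SE, adjusted p 0.667). Of 9 further genes of primary granules and their processing, 3 were higher and 5 lower, and Cd63, a membrane protein of primary granules and lysosomes, was 6.54 ± 0.37 higher on the log2 scale (SE, adjusted p 8.03e-07). Of 13 secondary and tertiary genes 3 were higher and 7 lower.

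Between tumor monocytes and healthy blood 3 of the 10 genes were called. Lcn2 (2.10 ± 0.47 SE on the log2 scale, adjusted p 0.00324) and Lrg1 (4.18 ± 0.87 SE, 0.0021) were higher, Ctsg was lower (-1.29 ± 0.34 SE, 0.00799) and 7 of the 10 were not called. Among all genes tested 33.5% were called higher and 33.0% lower. The groups did not overlap for these 3 genes, 2 higher and 1 lower, against 26.9% of all genes higher and 43.7% lower. The share of the 10 called was below the share over all genes in each direction, and their median log2 difference was -0.16. Elane (-0.10 ± 0.75 SE, adjusted p 0.915), Prtn3 (0.16 ± 0.32 SE, 0.673), Mpo (-0.22 ± 0.59 SE, 0.763) and Fcnb (0.36 ± 0.29 SE, 0.289) were within their errors or close to them. Camp (-2.46 ± 1.70 SE, 0.228), Ngp (-0.89 ± 1.70 SE, 0.664) and Ltf (-0.44 ± 1.59 SE, 0.82) had wide errors at a few counts a library. The 3 comparisons share libraries pairwise, so their values are not independent of each other.

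The genes whose profile over the 9 libraries was most like that of the primary sum were Lbp, Vps13c, C1rl, Psme2b and Etohi1, by the smallest mean absolute difference of centred log2(CPM + 1) values among 9715 genes. Lbp, which encodes lipopolysaccharide-binding protein, differed by 0.284 on average and was at 9.01, 9.71 and 6.13 CPM in healthy blood, 19.6, 30.9 and 31.0 CPM in LLC blood and 3.88, 11.5 and 9.07 CPM in LLC tumor. The genes most like the sum of the other 6 were Wfdc21 (0.278), Abca13 (0.371), S100a8 (0.483), Bzrap1 (0.521) and Zfp369 (0.557). In LLC blood that sum was mostly Lrg1 (34.5, 156 and 110 CPM) and Lcn2 (37.7, 90.2 and 70.8 CPM). The likeness therefore largely follows Lrg1 and Lcn2. Wfdc21, a secreted whey acidic protein gene, was at 0.357, 1.41 and 0.0613 CPM in healthy blood, 5.93, 31.5 and 26.3 CPM in LLC blood and 4.15, 17.6 and 10.2 CPM in LLC tumor. Abca13, a lipid transporter gene, was at 0.357 to 0.736 CPM in healthy blood, 9.85, 35.4 and 29.2 CPM in LLC blood and 1.26, 11.5 and 6.48 CPM in LLC tumor. Between LLC tumor and healthy blood, Lbp (0.12 on the log2 scale, adjusted p 0.759) was not called, while Wfdc21 (4.20, 0.0023) and Abca13 (3.57, 0.00287) were higher in tumor, as Lcn2 and Lrg1 were.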

How the data were processed

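RNA from sorted monocytes was made into TruSeq libraries and sequenced on a HiScanSQ, per the labels' protocols. The authors deposited a table of estimated counts per gene and a table of CPM values. The submitters' processing notes name STAR 2.6.1d, Salmon 1.9.0, Trim Galore, cutadapt 3.4, edgeR and mm10, without roles; the annotation and strand setting are not given in the sources used here. Estimated counts were rounded (all 90 values of the 10 genes were whole already). The deposited CPM values gave whole reads in 100% of values (tolerance 0.01 read) and were not tested themselves. CPM in the text was computed over all 24411 genes. Groups were tested with edgeR 4.0.16 in R 4.3.3 (quasi-likelihood, TMM, filterByExpr, 9 libraries, group as the only term), with Benjamini-Hochberg adjustment over 12337 genes and a threshold of 0.05. The steps were tested on simulated data. Alternatives were other scalings, DESeq2 1.42.0, limma-voom (limma 3.58.1), no filter, 6 libraries, a replicate block, and each library left out. The labels do not say which libraries share a mouse, so numbers were not taken as pairs in the main fit. Over all genes tested, same-numbered libraries deviated together weakly or not at all. The 10 genes and the other lists were chosen with earlier results of these data known. The genes named from a list are at most 3 with the largest called change and a mean of 20 CPM, plus defining markers; others named were chosen after their values were seen. Promoter windows and coordinates are from RefSeq. The 22 other samples of the series were not analysed here.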

Additional observations from a re-analysis of the deposited data

How the results depend on the processing

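Of the values for single genes under the alternatives, 521 kept direction and side of the threshold, 27 lost a call, 14 gained one and 9 changed sign. The changes of sign were all in LLC tumor against healthy blood, for values not called: with limma-voom Elane was at 0.37 and Mpo at 0.01, and over the fits without 1 library Elane ranged from -0.83 to 0.38, Mpo from -0.49 to 0.08, Prtn3 from -0.08 to 0.43, Ngp from -7.21 to 1.38 and Ltf from -1.43 to 1.08; the cause was not tested. The number called higher in LLC blood ranged from 5 to 9 without 1 library, and that called lower in LLC tumor against LLC blood from 6 to 9. Without replicate 2 of each group, a setting chosen after seeing the data, these were 4 and 5, with fewer genes tested. With the replicate block 10 of the 10 were called higher in LLC blood in both block fits, Camp and Ngp included (all 9 libraries, adjusted p 0.0135 and 0.0077), and 9 or 8 were lower in LLC tumor against LLC blood. Correlations of same-numbered libraries were 0.073 to 0.297 in blood, -0.137 to 0.12 between tumor and LLC blood, and 0.05 to 0.092 between tumor and healthy blood. Depth limits Elane, Mpo, Ctsg, Camp, Ngp and Ltf, each with under 10 counts in at least 3 libraries.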

Other observations

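Elane and Prtn3 lie on chromosome 10 between Plppr3 and Cfd, with 4708 bases between Plppr3 and Prtn3, 3137 between Prtn3 and Elane and 2636 between Elane and Cfd. Plppr3, named Lppr3 in the count table, was at 9.32, 14.8 and 11.7 CPM in healthy blood, 23.4, 26.3 and 22.6 CPM in LLC blood and 5.33, 8.66 and 10.0 CPM in LLC tumor. It was 0.99 ± 0.19 higher on the log2 scale in LLC blood than in healthy blood (SE, adjusted p 0.0058) and fell by 1.41 ± 0.20 in LLC tumor against LLC blood (SE, adjusted p 0.000206). Its estimated counts were not whole in any of the 9 libraries, so its level is less certain than those of the granule genes. Cfd, which encodes complement factor D, had 0 counts in healthy blood and at most 3 counts in any library. The spans of 9 of the 10 granule genes overlapped no other annotated gene; that of Mpo overlapped Gm34064.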
